A study of Mus musculus with 4 samples.

Results

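The genes described here are 38 genes of microglia, the resident macrophages of the brain, in 4 RNA sequencing libraries of cells from the mouse hippocampus. The genes were listed by name and looked up by symbol, and all 38 were found among the 23334 gene rows used. For 1 of them, Spi1, the row carried the older symbol Sfpi1. The cells came from Vegfr3::YFP reporter mice on a C57BL/6 background, in which yellow fluorescent protein (YFP) reports Vegfr3, the VEGF-C receptor encoded by Flt4. Cells were sorted by YFP from 2 groups of 16 mice, whose age is not given in the labels, and were cultured for 18 h with VEGF-C at 50 ng/ml or without it. The 4 groups are YFP-positive with VEGF-C, YFP-positive, YFP-negative with VEGF-C and YFP-negative, and all carry the reporter. Each library thus holds cells pooled from many mice, and the labels do not say from which of the groups of mice. With 1 library a group, no difference could be checked on replicates and no p-value was computed.

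Microglia arise from yolk sac progenitors and depend on signals through the receptor Csf1r and on the transcription factors PU.1 (gene Spi1) and Irf8. In the healthy brain they carry a set of homeostatic surface receptors, and on injury or in culture they are known to lower these and to raise genes of phagocytosis and inflammation. Receptors such as Trem2 and the activating Fc receptors have no signalling domain of their own and pass their signal through the adaptors Tyrobp and Fcer1g. C1q, the first component of the classical complement pathway, is built from the chains of C1qa, C1qb and C1qc, and microglia are its main source in the brain.

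The C1q genes lie side by side on the minus strand of chromosome 4 within 18.7 kb, from 136880129 to 136898803 (mm10, GENCODE M21). In these libraries C1qb and C1qc stood together at their highest in 1 library and at or near 0 in the others, whereas Trem2 and Fcrls were highest in a different library. The 250 bases before the RefSeq start of these 4 genes (GRCm38.p6) are shown for that contrast, written along the gene's strand. Capitals mark GAGGAA on either strand (TTCCTC where it lies on the opposite one), the core of the sequence that PU.1 is known to bind.
C1qb (chr4:136886201-136886450, minus strand): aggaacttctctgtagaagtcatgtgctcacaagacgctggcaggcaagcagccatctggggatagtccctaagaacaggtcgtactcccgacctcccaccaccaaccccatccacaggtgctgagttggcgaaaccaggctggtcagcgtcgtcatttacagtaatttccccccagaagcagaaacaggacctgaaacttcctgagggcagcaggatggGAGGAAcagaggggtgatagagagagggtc
C1qc (chr4:136892915-136893164, minus strand): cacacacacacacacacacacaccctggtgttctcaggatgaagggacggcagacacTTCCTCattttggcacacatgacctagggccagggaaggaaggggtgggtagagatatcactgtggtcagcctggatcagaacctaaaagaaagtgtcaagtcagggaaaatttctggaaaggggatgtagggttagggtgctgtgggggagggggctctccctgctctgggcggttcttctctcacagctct
Trem2 (chr17:48346151-48346400, plus strand): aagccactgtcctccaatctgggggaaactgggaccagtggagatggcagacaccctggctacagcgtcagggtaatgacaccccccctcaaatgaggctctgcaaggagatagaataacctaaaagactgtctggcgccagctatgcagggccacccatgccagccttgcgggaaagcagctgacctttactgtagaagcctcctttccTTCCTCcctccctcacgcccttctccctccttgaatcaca
Fcrls (chr3:87263525-87263774, minus strand): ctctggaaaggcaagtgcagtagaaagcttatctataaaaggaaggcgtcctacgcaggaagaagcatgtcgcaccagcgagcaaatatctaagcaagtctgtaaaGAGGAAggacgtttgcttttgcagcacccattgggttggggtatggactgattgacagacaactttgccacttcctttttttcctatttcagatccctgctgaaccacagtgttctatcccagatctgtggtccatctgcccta
The match lay 30 bases before the RefSeq start in C1qb, 193 in C1qc, 40 in Trem2 and 144 in Fcrls. In GENCODE M21, C1qc reaches to 136893065 and Fcrls to 87263738, so both genes start within the stretch shown. On that annotation the C1qc match lies nearer the start, and the Fcrls match lies inside the gene. Upstream sequence was at hand for 30 of the 38 genes, and 13 of these, or 43.3%, held GAGGAA on either strand, against 25.9% of 27025 genes. The longer form GAGGAAGT, which contains GAGGAA, was found on either strand in C1qc and no other of the 30, against 2.79% of genes. The ETS-IRF composite element, which PU.1 binds jointly with Irf8, was found on either strand in Fcgr2b alone, against 2.68%. The 4 genes shown were taken from these 13, so that they share the motif by choice, and a match is a description of these letters and not a binding site.

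The libraries differed in depth and in the number of genes they detected. The number of fragments behind each deposited value was worked out from the steps of the normalized counts, and the totals were between 8390511 and 60326390. The YFP-positive and the YFP-negative with VEGF-C libraries had 9669 and 9556 genes above 0 and are called sparse here, against 13528 and 13132 in the YFP-positive with VEGF-C and YFP-negative libraries. Each comparison of the design sets 1 sparse library against 1 that is not. A value of exactly 0 can be a failed estimate, since Hnrnpa1, a gene of basic RNA processing in all cells, had 0 in the YFP-negative with VEGF-C library. Such values are called listed at 0. Intervals in brackets are 95% exact Poisson intervals, which cover counting error alone, as fragments copied by amplification do not stand for separate molecules. In the labels, YFP-positive stands for neural stem cells and YFP-negative for neurons. The 8 astrocyte genes, several of which neural stem cells express, had a summed FPKM of 1079 with VEGF-C and 1259 without in YFP-positive cells, against 62.0 and 62.8 in YFP-negative cells. Of 12 neuronal genes, 3 reached 1 FPKM in the YFP-negative with VEGF-C library, led by Snap25 at 39.9 FPKM. In the YFP-negative one 6 did, led by Tubb3 at 24.2 FPKM and Snap25 at 21.1. In YFP-positive cells Tubb3 was at 242 FPKM with VEGF-C and 166 without, and Snap25 at 20.4 and 6.28. The summed FPKM of the 12 genes was 380 with VEGF-C and 318 without in YFP-positive cells, against 51.2 and 64.2 in YFP-negative cells. Tubb3 alone held 242 of the 380 and 166 of the 318 FPKM. By gene the sort was mixed without VEGF-C, where 3 of 8 measured neuronal genes were 2-fold higher in YFP-positive cells and 4 lower. These are 37.5% and 50%, against 30.1% and 46.7% of all genes. With VEGF-C 5 of 8 were higher and 0 lower, or 62.5% higher against 47.0% of all genes. Rbfox3 was below 1 FPKM in both YFP-negative libraries, and Slc17a7 was near 0 in all 4. In YFP-negative cells the summed FPKM of 8 oligodendrocyte genes was 8836 with VEGF-C and 7362 without, so markers other than neuronal ones dominated the cells labelled neurons.

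Microglia genes were concentrated in the YFP-negative libraries. The summed FPKM of the 38 genes (fragments scaled by transcript length and library) was 88.0 in the YFP-positive with VEGF-C library and 214 in the YFP-positive library, against 3743 in the YFP-negative with VEGF-C library and 1372 in the YFP-negative library. At 10 FPKM or more stood 3 genes in the YFP-positive with VEGF-C library, 2 in the YFP-positive, 18 in the YFP-negative with VEGF-C and 25 in the YFP-negative one. Of the 32 genes that reached 1 FPKM in any library, 31 had their highest value in a YFP-negative one, 17 with VEGF-C and 14 without, the exception being Tlr4. Over all genes that reached 1 FPKM, 49.6% had their highest value in a YFP-negative library.

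**Figure D1:**
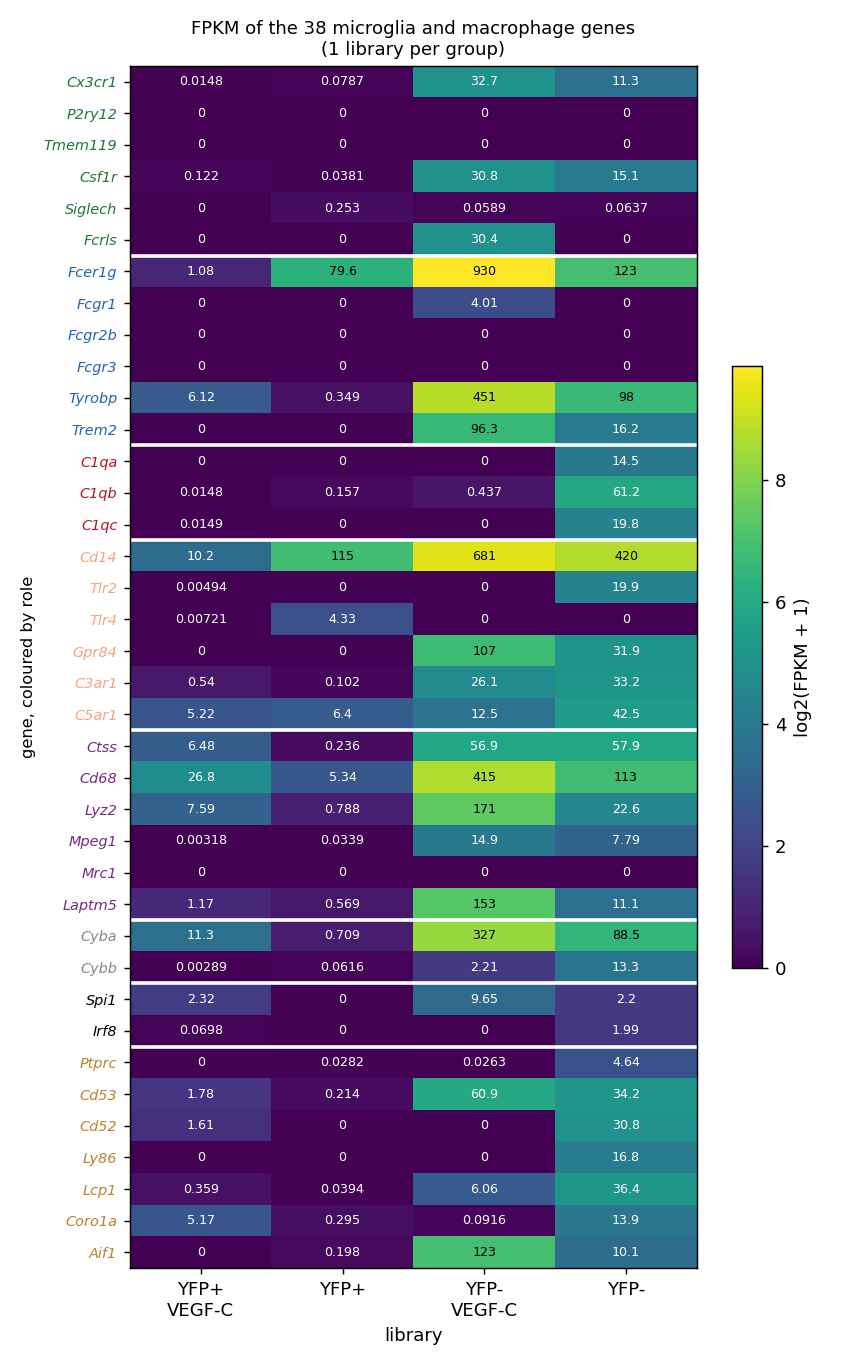
FPKM of each of the 38 genes (rows, grouped by role with white lines between groups) in the 4 libraries (columns), with colour on a log2(FPKM + 1) scale and the FPKM printed in each cell. The C1q rows are filled in the YFP-negative library, where they stand at 14.5, 61.2 and 19.8 FPKM, while Fcrls is filled in the YFP-negative with VEGF-C library at 30.4 FPKM.

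Differences between 2 libraries were taken as log2((FPKM + 1)/(FPKM + 1)), which understates the change of low genes, and a call of higher or lower needed at least 2-fold on that scale, for a gene counted as measured if it reached 1 FPKM in either library. Without VEGF-C, 28 of 30 measured members stood lower in the YFP-positive library and 1 higher, with a median log2 ratio of -3.96. Over all 11265 genes measured, 46.7% were lower and 30.1% higher, and the median was -0.66. With VEGF-C, the YFP-positive library was lower for 22 of 24 members and higher for 2, with a median of -4.40. The share over all 11229 genes there was 27.6% lower and 47.0% higher, with a median of 0.69. In both pairs 19 members were lower, and the share of all genes lower in both was not computed. Upper-quartile scaling took C5ar1 and Spi1 under 2-fold in the pair with VEGF-C and turned the sign of C5ar1, and re-centring on all genes took Irf8 under 2-fold in the pair without VEGF-C and Cd52 in the pair with it. In YFP-positive with VEGF-C against YFP-negative cells, a pair chosen after seeing the data that leaves out both sparse libraries but also differs in VEGF-C, 28 of 29 members were lower and 0 higher, with 25.8% of all genes lower. In pooled bulk samples such as these, fewer microglia and less RNA per microglial cell cannot be told apart.

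**Figure D2:**
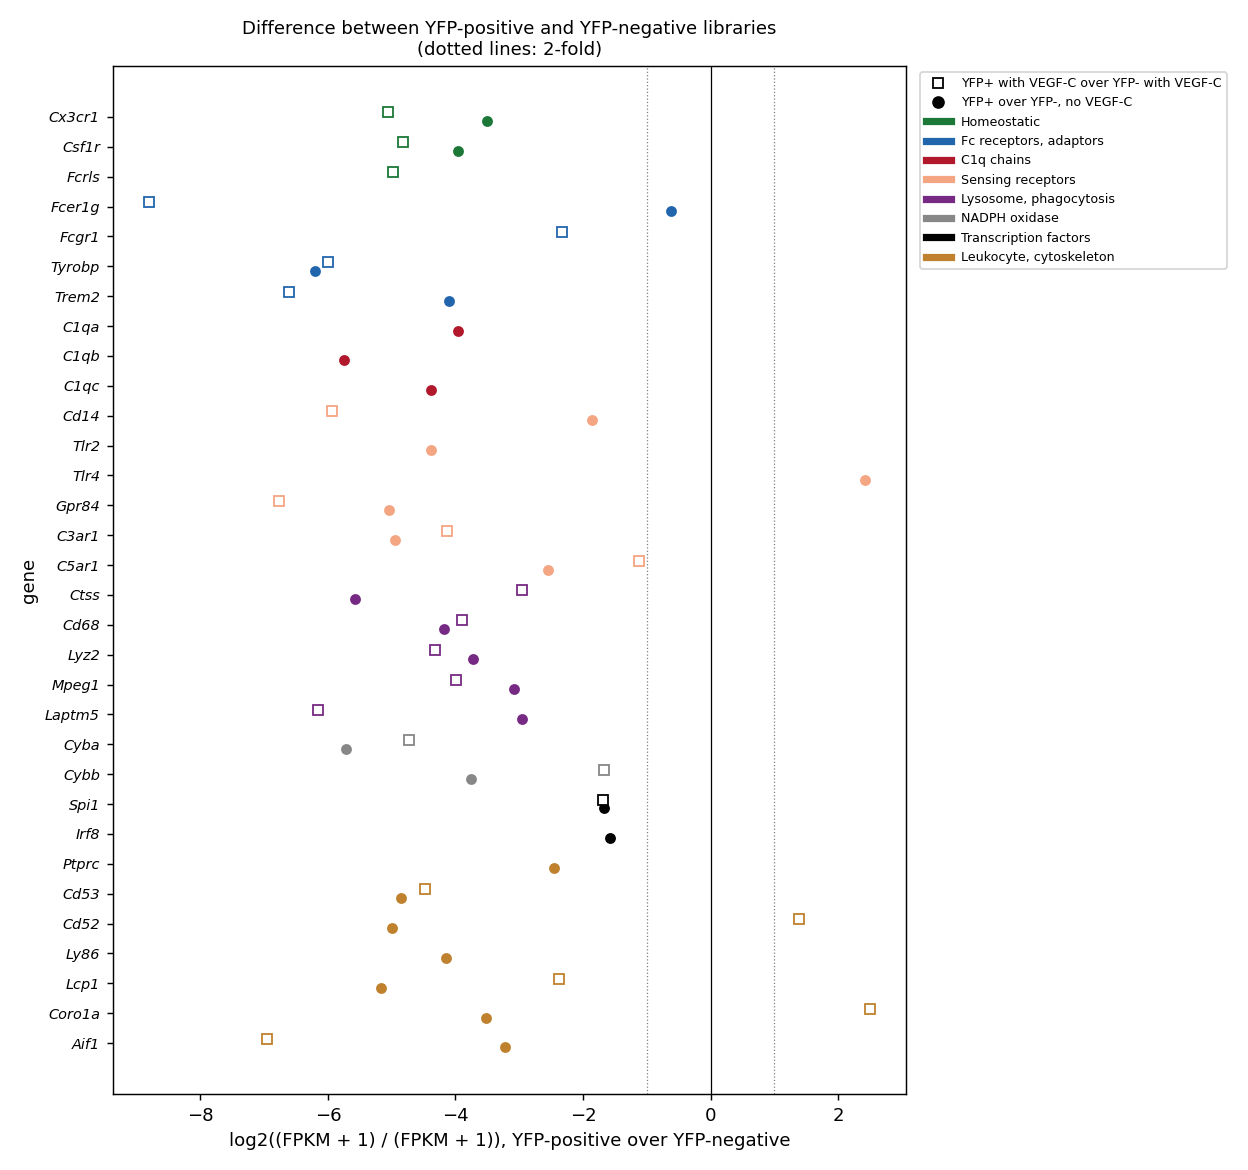
Log2 ratio of YFP-positive over YFP-negative cells (x axis) for each member that reached 1 FPKM (rows), with open squares for the pair with VEGF-C and filled circles for the pair without. Nearly every point lies left of the 2-fold line at -1; Tlr4 without VEGF-C and Cd52 and Coro1a with it lie to the right of 0 beyond the other line, and Fcer1g stands at -8.81 with VEGF-C and -0.62 without.

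The homeostatic genes split into those that were present in YFP-negative cells and those that were at or near 0 throughout. Cx3cr1, the receptor of the neuronal chemokine fractalkine, stood at 0.0148 FPKM in the YFP-positive with VEGF-C library, 0.0787 in the YFP-positive one, 32.7 in the YFP-negative with VEGF-C one and 11.3 in the YFP-negative one. Csf1r, the receptor that microglia need to survive, was at 0.122, 0.0381, 30.8 and 15.1 FPKM in that order. Both were thus high in both YFP-negative libraries and near 0 in both YFP-positive ones, where they rested on 1 to 34 fragments. Fcrls, a scavenger-like relative of the Fc receptors that is used as a microglia marker in mice, was at 30.4 FPKM (27.6 to 33.5) in the YFP-negative with VEGF-C library and listed at 0 in the other 3. In the YFP-negative library, the limit that a true count of 0 allows was 0.0774 FPKM, at 3 fragments. The ADP receptor gene P2ry12 and Tmem119, a widely used marker of microglia, were listed at 0 in all 4 libraries, as were 35.3% of all genes. Siglech, a sialic acid-binding lectin, did not exceed 0.253 FPKM. Csf1, which encodes the ligand of Csf1r, was at 75.6, 129, 124 and 64.3 FPKM in the 4 libraries, while Il34, the other ligand, had 0 in 3 libraries and 0.0915 FPKM in the remaining YFP-negative one. The ligand gene did not follow the YFP sort as its receptor did.

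The adaptor genes were among the 5 most abundant members in both YFP-negative libraries. Tyrobp, which passes on the signal of Trem2, was at 6.12 FPKM (5.27 to 7.06) in the YFP-positive with VEGF-C library, 0.349 (0.00882 to 1.94) in the YFP-positive one, 451 (428 to 476) in the YFP-negative with VEGF-C one and 98.0 (91.4 to 105) in the YFP-negative one. Trem2, a receptor for lipids and lipoproteins, was listed at 0 in both YFP-positive libraries and stood at 96.3 FPKM with VEGF-C and 16.2 without it in YFP-negative cells. In the YFP-negative libraries, Tyrobp thus exceeded Trem2 by an FPKM ratio of 4.69 with VEGF-C and 6.06 without.

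Fcer1g, the signalling chain shared by the activating Fc receptors, departed from Tyrobp. It was at 1.08 FPKM (0.769 to 1.47) in the YFP-positive with VEGF-C library, 79.6 (70.5 to 89.4) in the YFP-positive one, 930 (899 to 961) in the YFP-negative with VEGF-C one and 123 (116 to 130) in the YFP-negative one. The adaptors stood furthest apart in the YFP-positive library, with 280 fragments of Fcer1g and 1 of Tyrobp. The Fc receptor genes themselves were nearly absent from the tables. Fcgr1, the high-affinity receptor for IgG, was at 4.01 FPKM (74 fragments) in the YFP-negative with VEGF-C library and listed at 0 elsewhere. Fcgr2b, the inhibitory receptor, and Fcgr3, an activating one, were listed at 0 in all 4 libraries. These neighbours on chromosome 1 have closely related sequences, so their estimates are uncertain.

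The C1q genes were abundant in 1 library, YFP-negative without VEGF-C. In both YFP-positive libraries no C1q chain exceeded 1 fragment. In the YFP-negative with VEGF-C library, C1qb was at 0.437 FPKM from 3 fragments (0.0902 to 1.28), and C1qa and C1qc were listed at 0, where a true count of 0 allows up to 0.434 and 0.446 FPKM at 3 fragments. C1qa was at 14.5 FPKM (12.9 to 16.3), C1qb at 61.2 (57.8 to 64.9) and C1qc at 19.8 (17.9 to 22.0) in the YFP-negative library, from 280, 1155 and 371 fragments. Per length, C1qb was 4.22 times C1qa and 3.09 times C1qc there. The chains enter the C1q protein in equal numbers. Tyrobp was 4.61-fold higher with VEGF-C in the same YFP-negative pair, so the C1q chains and the adaptor differed in opposite directions. The genes C1ra, C1rb and C1s encode the proteases that bind C1q. Outside the YFP-negative library they did not exceed 0.00481 FPKM, and in it C1rb at 3.82 FPKM was the only one of the 3 above 1. Of 14 other complement genes on the list, which includes these 3, 6 were measured in the pair without VEGF-C, 4 of them lower and 1 higher in YFP-positive cells, or 66.7% lower against 46.7% of all genes. In the pair with VEGF-C, 0 of 5 measured were lower and 3 higher, or 60% higher against 47.0% of all genes, with a median of 1.70. Calreticulin (Calr), a chaperone that also binds C1q, was at 187, 375, 122 and 117 FPKM in the 4 libraries, from YFP-positive with VEGF-C to YFP-negative in the order above.

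Receptors that sense microbes, damage and complement fragments followed several patterns. Cd14, the co-receptor that hands lipopolysaccharide to Tlr4, was at 10.2 FPKM in the YFP-positive with VEGF-C library, 115 in the YFP-positive one, 681 in the YFP-negative with VEGF-C one and 420 in the YFP-negative one. It was the most abundant member in the YFP-positive and the YFP-negative libraries, at 53.5% and 30.6% of the summed FPKM. Tlr4 itself was at 0.00721 FPKM (2 fragments) in the YFP-positive with VEGF-C library, at 4.33 (113 fragments) in the YFP-positive one, and at 0 in YFP-negative cells with and without VEGF-C. Thus Cd14 and Tlr4 stood together in the YFP-positive library only, where Cd14 was lower than in YFP-negative cells. Tlr2, a receptor for bacterial lipoproteins, did not exceed 0.00494 FPKM in the other 3 libraries and stood at 19.9 in the YFP-negative one. Gpr84, a receptor for medium-chain fatty acids that is raised in activated microglia, was at 107 FPKM with VEGF-C and 31.9 without in YFP-negative cells and listed at 0 in both YFP-positive libraries. C3ar1 and C5ar1, the receptors of the complement fragments that attract phagocytes, had 26.1 and 12.5 FPKM in the YFP-negative with VEGF-C library, against 33.2 and 42.5 in the YFP-negative one. C5ar1 was also read in YFP-positive cells, at 5.22 FPKM with VEGF-C and 6.40 without, and C3ar1 stayed at 0.540 and 0.102 FPKM there.

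Genes of the lysosome and of phagocytosis were high in YFP-negative cells and also formed much of the low signal in YFP-positive cells with VEGF-C. Cd68, a lysosomal membrane glycoprotein of phagocytes, had values of 26.8, 5.34, 415 and 113 FPKM in the YFP-positive with VEGF-C, YFP-positive, YFP-negative with VEGF-C and YFP-negative libraries. Ctss, the protease cathepsin S, was at 6.48, 0.236, 56.9 and 57.9 FPKM in that order. Lyz2, the lysozyme of macrophages, was at 7.59, 0.788, 171 and 22.6 FPKM. All of these were lowest in the YFP-positive library and higher in both YFP-negative libraries than in either YFP-positive one. Laptm5, a lysosomal transmembrane protein of blood cells, was at 1.17, 0.569, 153 and 11.1 FPKM in that order. Mpeg1, a pore-forming protein of macrophages, was at 0.00318, 0.0339, 14.9 and 7.79 FPKM. Both were higher in YFP-negative cells with VEGF-C than without, Mpeg1 by less than 2-fold. Mrc1, the mannose receptor that marks macrophages of the brain's borders, was listed at 0 in all 4 libraries. The sequence of Lyz2 resembles that of Lyz1, for which YFP-negative cells had 12.1 FPKM with VEGF-C and 2.07 without, so some of their reads may be split.

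The subunits of the phagocyte oxidase, which makes superoxide, did not keep one proportion. Cyba, the small subunit, was at 327 FPKM with VEGF-C and 88.5 without in YFP-negative cells, while Cybb, the large one, was at 2.21 and 13.3 FPKM. The Cyba to Cybb ratio of FPKM was thus 148 with VEGF-C and 6.64 without. In YFP-positive cells Cyba was at 11.3 FPKM with VEGF-C and 0.709 without, and Cybb did not exceed 0.0616 FPKM. Spi1 was at 2.32 FPKM in the YFP-positive with VEGF-C library, listed at 0 in the YFP-positive one, and reached 9.65 FPKM in the YFP-negative with VEGF-C library against 2.20 in the YFP-negative one. Its level in YFP-positive cells with VEGF-C (2.01 to 2.66) overlapped that in YFP-negative cells without it (1.65 to 2.87). Irf8, its partner, did not exceed 0.0698 FPKM in the other 3 libraries and stood at 1.99 in the YFP-negative one.

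The remaining genes are shared by leukocytes or act on their actin cytoskeleton. Aif1, which encodes the microglia marker Iba1, had 0 FPKM in the YFP-positive with VEGF-C library, 0.198 in the YFP-positive, 123 in the YFP-negative with VEGF-C and 10.1 in the YFP-negative one. Ptprc, the leukocyte phosphatase CD45, did not exceed 0.0282 FPKM in the other 3 libraries and stood at 4.64 in the YFP-negative one. The tetraspanin gene Cd53 stood at 1.78, 0.214, 60.9 and 34.2 FPKM, and the actin-bundling gene Lcp1 at 0.359, 0.0394, 6.06 and 36.4 FPKM, in the YFP-positive with VEGF-C, YFP-positive, YFP-negative with VEGF-C and YFP-negative libraries. Ly86, a partner of a Toll-like receptor relative, was listed at 0 in the other 3 libraries and stood at 16.8 FPKM in the YFP-negative one. Coro1a, the actin regulator coronin, and Cd52, a short surface glycoprotein, were the members that were higher in YFP-positive cells with VEGF-C. Coro1a was at 5.17 FPKM (558 fragments) there, against 0.0916 (1 fragment) in the matching YFP-negative library. Without VEGF-C it was at 0.295 FPKM in YFP-positive and 13.9 in YFP-negative cells. Cd52 reached 1.61 FPKM (1.15 to 2.18) in YFP-positive with VEGF-C cells, against 0 (0 to 1.45) in YFP-negative with VEGF-C cells. These counting intervals overlapped. Without VEGF-C the Cd52 value was 0 in the YFP-positive library, against 30.8 FPKM in the YFP-negative one. Coro1a and Cd52 overlap genes on the other strand, Bola2 and Crybg2, and so do Cx3cr1, Csf1r, P2ry12, Fcgr2b, Gpr84, Cyba and Lcp1 in the annotation. Overlap was taken on whole gene spans, and shared exons were not examined. The library kit does not mark strand, so reads from exon bases that such pairs share cannot be told apart.

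Within YFP-negative cells, the design asks how cells cultured with VEGF-C differ from those without it. The members did not share a direction. With VEGF-C, 13 of 31 measured members (41.9%) were higher and 12 (38.7%) lower, with a median log2 ratio of 0.81. Over all 10968 genes measured, 25.3% were higher and 45.3% lower, and the median was -0.54. All 4 measured Fc receptor and adaptor genes were higher, with a median of 2.41, and all 3 C1q genes were lower, with a median of -4.38. Of 3 homeostatic genes, Fcrls and Cx3cr1 were higher and Csf1r, at a log2 ratio of 0.98, stayed just under 2-fold on the scale with the pseudocount. Of 5 measured sensing receptors, Gpr84 was higher and C5ar1 and Tlr2 lower. Of 5 lysosomal and phagocytic genes, 3 were higher and 0 lower. Of 7 leukocyte and cytoskeletal genes, 1 was higher and 5 were lower. Both oxidase subunits and both transcription factors went opposite ways, with Cyba at 1.87 and Cybb at -2.16, and Spi1 at 1.74 and Irf8 at -1.58.

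Fold changes on the FPKM scale, with VEGF-C over without, were 13.8 for Laptm5, 12.2 for Aif1, 7.56 for Fcer1g, 7.55 for Lyz2, 5.96 for Trem2, 4.61 for Tyrobp, 4.39 for Spi1, 3.69 for Cyba, 3.66 for Cd68, 3.36 for Gpr84 and 2.90 for Cx3cr1. In the other direction, Cybb was 6.03-fold lower with VEGF-C, Lcp1 6.01-fold lower and C5ar1 3.39-fold lower. The other 9 lower members had 0 to 3 fragments with VEGF-C, and no fold is given for them. The counting intervals of the libraries overlapped for Ctss. The share of all genes with intervals apart was not computed, so no count of members is set against it. The YFP-negative with VEGF-C library is sparse, and of 5275 genes at 10 FPKM or more in the YFP-negative library, 379 (7.18%) were listed at 0 in it. Among members this held for 5 of 25, namely C1qa, C1qc, Tlr2, Cd52 and Ly86. Upper-quartile scaling turned the median to -0.39, with 7 members higher and 14 lower, and the homeostatic median to 0.29, with 1 of 3 higher. Under it Cx3cr1, Tyrobp, Gpr84, Cd68, Cyba and Spi1 came under 2-fold without a change of sign, 3 of 4 Fc receptor and adaptor genes stayed higher with a median of 1.49, and all 3 C1q genes stayed lower with a median of -4.95. The part of depth and dropout in these differences was not tested.

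**Figure D3:**
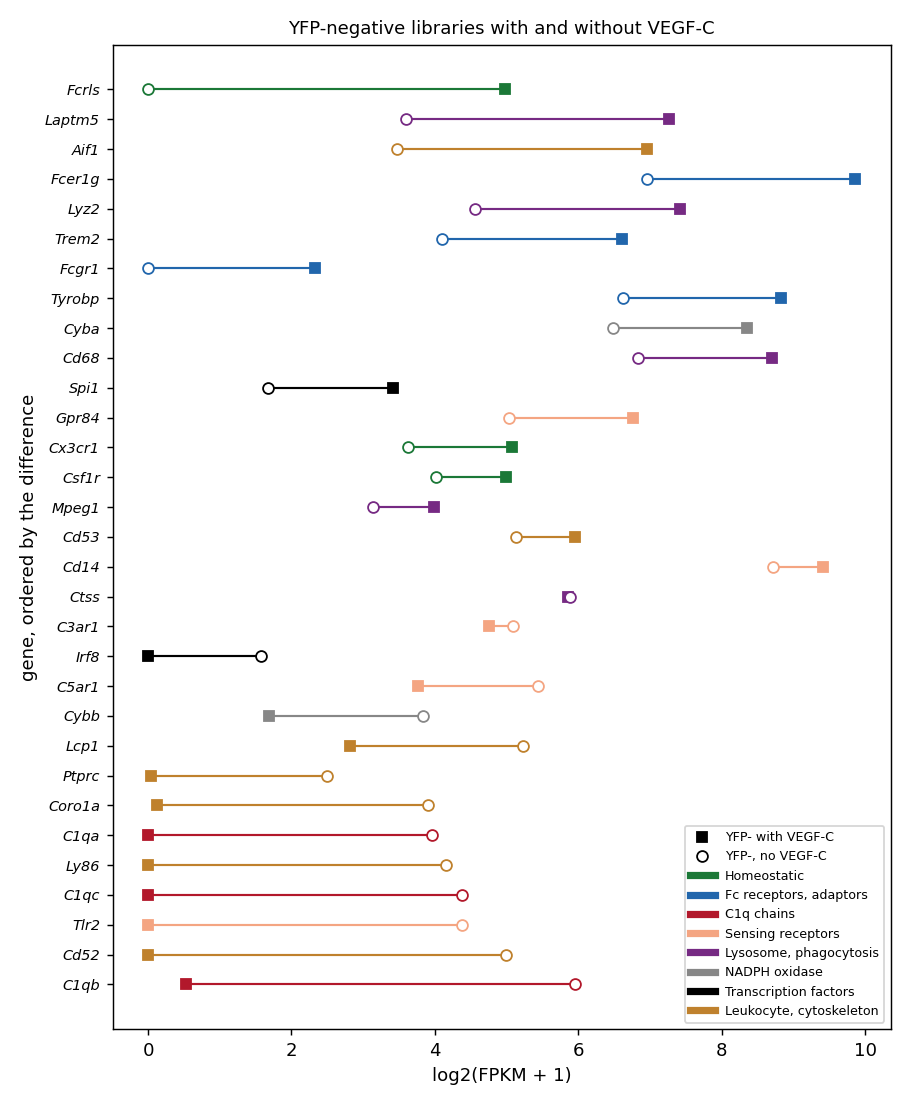
Level of each measured member in YFP-negative cells as log2(FPKM + 1), with filled squares for the library with VEGF-C and open circles for the one without, ordered by the difference and coloured by role. Fcrls, Laptm5, Aif1 and Fcer1g stand at the top with higher values with VEGF-C, and C1qb, Cd52, Tlr2 and C1qc at the bottom with values at or near 0 in that library.

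In YFP-positive cells, the same comparison rests on low values. With VEGF-C, 9 of 14 measured members (64.3%) were higher and 3 (21.4%) lower, with a median log2 ratio of 1.56, against 45.5% higher, 26.3% lower and a median of 0.59 over 11040 genes. The higher ones were Cyba, Ctss, Tyrobp, Lyz2, Coro1a, Cd68, Spi1, Cd52 and Cd53, and Cd68 at 26.8 FPKM was the most abundant of them. The lower ones were Fcer1g at -5.28, Cd14 at -3.37 and Tlr4 at -2.40. Neither a C1q gene nor a homeostatic gene reached 1 FPKM in either library. The library without VEGF-C is the sparse one here. Cd52 and Spi1 were listed at 0 in it, and the counting intervals of Cd52 overlapped. Re-centring on all genes took Cd53 and Cd52 under 2-fold. S100a8, which neutrophils express strongly, had 0 in the YFP-positive with VEGF-C library and 120 FPKM in the YFP-positive one, where Fcer1g and Cd14 were high too. Its partner S100a9 was listed at 0 in both, and 6 of the 7 neutrophil markers found were at 0 in each of these libraries, with summed FPKM of 1.79 and 120. The part of such cells in the Fcer1g and Cd14 values was not tested.

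Shares of the members' summed FPKM set the roles side by side within a library. Homeostatic genes made up 0.155%, 0.172%, 2.51% and 1.93% of the summed FPKM in the YFP-positive with VEGF-C, YFP-positive, YFP-negative with VEGF-C and YFP-negative libraries. Fc receptor and adaptor genes made up 8.17%, 37.3%, 39.6% and 17.3%. C1q genes made up 0.0338%, 0.0731%, 0.0117% and 6.97%. Between the YFP-negative libraries, the homeostatic and the Fc receptor and adaptor shares were larger with VEGF-C, and the C1q share was larger without it. On the FPKM scale, the larger homeostatic share with VEGF-C depended on Fcrls. That gene held 30.4 of 94.0 summed homeostatic FPKM with VEGF-C and was listed at 0 without it, where the sum was 26.5. The intervals from counting error were 37.4% to 41.7% with VEGF-C and 15.7% to 18.9% without for the Fc receptor and adaptor genes, and 0.00230% to 0.0659% with VEGF-C and 6.19% to 7.82% without for C1q. In the YFP-positive library, Cd14 and Fcer1g together carried nearly the whole sum, at 53.5% and 37.1%, and with VEGF-C the lysosomal and phagocytic genes carried 47.7%.

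**Figure D4:**
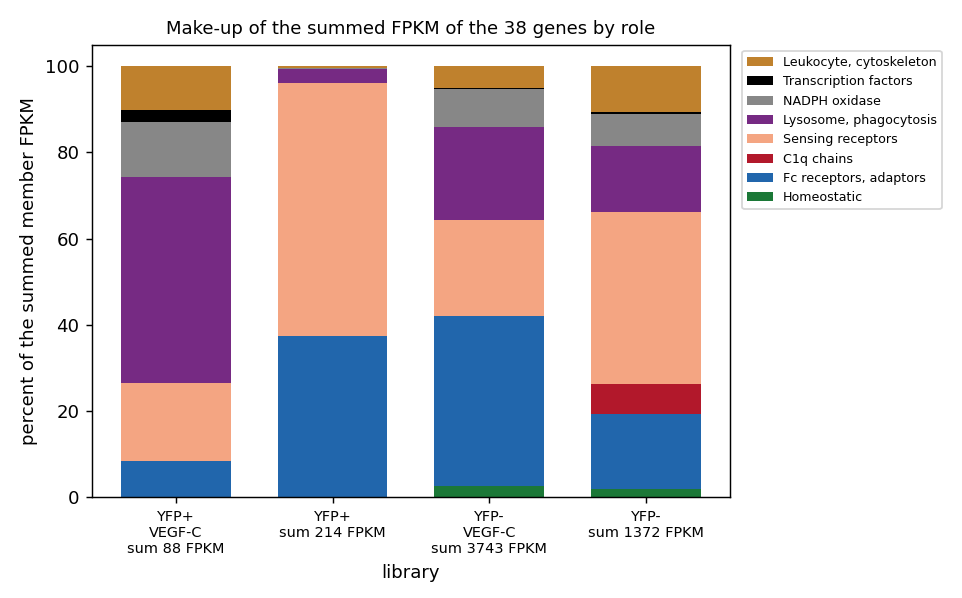
Percent of the summed FPKM of the 38 genes (y axis, from 0) held by each role in each library (bars), with the summed FPKM under each bar. The C1q band is visible in the YFP-negative library alone, at 6.97%, and the Fc receptor and adaptor band is 39.6% in YFP-negative cells with VEGF-C and 17.3% without.

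Of 37 further microglia genes, 26 were measured in the pair without VEGF-C, 22 of them lower in YFP-positive cells (84.6%, against 46.7% of all genes) and 3 higher, with a median of -2.55. With VEGF-C, 23 were measured, 9 lower (39.1%, against 27.6% of all genes) and 12 higher (52.2%, against 47.0%), with a median of 1.37. Between YFP-negative cells with and without VEGF-C, the list had 4 higher and 17 lower of 26 (65.4% lower, against 45.3% of all genes), and its median was -1.43. By mean FPKM its leading genes included the inhibitory receptor Lilrb4, at 0.678, 27.8, 329 and 280 FPKM from YFP-positive with VEGF-C to YFP-negative, Cd300a at 4.14, 13.9, 21.6 and 14.9 FPKM, and the microglial transcription factor gene Sall1 at 11.7, 0.610, 25.6 and 7.58 FPKM. These named genes ran against most of their list in 2 comparisons. All were lower in YFP-positive cells in the pair with VEGF-C, and all had higher values with VEGF-C in YFP-negative cells. Genes known to rise in disease-associated microglia were mixed in the YFP pair. Of 16 measured without VEGF-C, 6 were lower (37.5%, against 46.7% of all genes) and 3 higher in YFP-positive cells. With VEGF-C, 7 of 15 were lower (46.7%, against 27.6% of all genes) and 5 higher. Apoe, which astrocytes also express, had 1570 FPKM in the YFP-positive library, against 123 in the YFP-negative one.

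Markers of other cell types moved with the members in part. Of 8 genes of border macrophages, 5 or 6 were listed at 0 in each library, and their summed FPKM was 13.1, 3.10, 235 and 58.4, from YFP-positive with VEGF-C to YFP-negative. In YFP-negative cells most of it came from Pf4, a chemokine of platelets and macrophages, at 198 FPKM with VEGF-C and 47.4 without, and from Stab1 at 37.3 and 6.56. In the YFP-positive library nearly all of it came from Lyve1 at 3.06 FPKM, a gene listed at 0 in the other 3. The defining Cd163 and Mrc1 were at 0 in all 4 libraries. Of 6 monocyte genes at least 5 were listed at 0 in each library, Ccr2 and Ly6c2 in all, and the summed FPKM did not exceed 3.83. Of the 7 neutrophil genes found, 3 reached 1 FPKM in the YFP-negative library. These were S100a8 at 14.8 FPKM, Retnlg at 7.88 and S100a9 at 4.16. In the YFP-negative with VEGF-C library, Retnlg at 6.15 FPKM was the only neutrophil gene above 0. Of 9 lymphocyte genes 6 to 8 were listed at 0 in each library, with Cd3e at 0 in all. Their summed FPKM was 1.96, 7.17, 0.112 and 0.276 from YFP-positive with VEGF-C to YFP-negative. In each YFP-positive library 1 of them reached 1 FPKM. Oligodendrocyte genes, which mark myelin-forming cells, moved with the members in the YFP sort, with a summed FPKM of 469, 355, 8836 and 7362. Between YFP-negative cells with and without VEGF-C they were higher in 1 of 8 and lower in 1. The part of these other cells in the members' values was not tested.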

How the data were processed

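RNA was measured in 4 pooled libraries, 1 per group. The SMARTer Ultra Low RNA Kit, used per the labels, does not mark strand. The submitters' processing notes name mm10, TopHat2 2.0.9, Bowtie2 2.1.0, SAMtools 0.1.18 and Cuffdiff of Cufflinks 2.1.1. The sources used here name no annotation version. The authors deposited a table of FPKM and a table of normalized counts per gene, so named per the file headers. The deposited normalized counts were not whole numbers and were treated as a signal. Of 23361 rows, 27 with symbols turned into dates were left out. The commonest normalized count of each library was taken as 1 fragment, and divided by it, 99.0% to 99.6% of values up to 2000 came within 0.05 of a whole number. No count model was run, since each group has 1 library. Ratios used a pseudocount of 1 FPKM and calls a 2-fold limit. Gene positions came from GENCODE M21 (mm10) and upstream sequences from RefSeq (GRCm38.p6). The 38 members, the other lists and the motifs were chosen with earlier results of these data known. All members are named, and up to 4 genes of another list, by highest mean FPKM, except that 1 gene the rule names is not reported here. C1ra, C1rb, C1s, Cd163, Lyz1, Cd3e, Rbfox3, Slc17a7 and Hnrnpa1 were named outside that rule, after their values were seen. The calling step was tested on simulated data. Alternatives were the pseudocount, the filter, re-centring, upper-quartile scaling, the other table and leaving out values at 0. Python 3.11.15, pandas 2.3.3, NumPy 2.4.6 and SciPy 1.17.1 were used.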

Additional observations from a re-analysis of the deposited data

Results flagged for a closer look

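For 3 members, the difference between libraries with and without VEGF-C reached 2-fold in both YFP-positive and YFP-negative cells, in opposite directions. The share of all genes with such opposite calls was not computed. Over all genes measured, 45.5% were higher and 26.3% lower with VEGF-C in YFP-positive cells. In YFP-negative cells 25.3% were higher and 45.3% lower. The sparse library is the one without VEGF-C in YFP-positive cells and the one with it in YFP-negative cells. Cd14, at -3.37 in YFP-positive and 0.70 in YFP-negative cells, also had opposite signs but was under 2-fold in YFP-negative cells, as was Ctss, at 2.60 in YFP-positive and -0.02 in YFP-negative cells. With 1 library a group, the difference between the responses was not tested. For Fcer1g, the log2 ratio with VEGF-C over without was -5.28 in YFP-positive cells and 2.91 in YFP-negative cells, a difference of -8.19. For Cd52, the ratios were 1.38 in YFP-positive and -4.99 in YFP-negative cells, a difference of 6.37, and the libraries at 0 were the sparse ones in both pairs. For Coro1a, the ratios were 2.25 in YFP-positive and -3.77 in YFP-negative cells, a difference of 6.03, with 3 fragments or fewer in the sparse libraries.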

How the results depend on the processing

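No paired analysis was possible because each group has 1 library. Of 123 recomputed values, 75 stayed within 1.5 times for counts or within counting error for medians and shares, 47 moved further and 1 changed sign; the cause was not tested beyond what each setting leaves out. The direction of both YFP comparisons held under every setting run, though the filter on mean FPKM favours that direction by its design.

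In the YFP comparison without VEGF-C, 0 members were higher with a pseudocount of 5 FPKM or a mean of at least 20 FPKM. The same held with members at 0 left out and without the sparse libraries. The mean of at least 20 FPKM left 12 members measured, 11 of them lower. Members passed that filter mainly through their YFP-negative values, so it favours calls of lower in both YFP comparisons. The median was -6.57 with a pseudocount of 0.1 FPKM, -2.07 with 5, -3.30 after re-centring on all genes and -4.53 under upper-quartile scaling.

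For YFP-positive with VEGF-C against YFP-negative with VEGF-C, 0 were higher with a pseudocount of 5 FPKM or a mean of at least 20 FPKM, and 1 after re-centring, on normalized counts with a pseudocount of 20, or with members at 0 left out. That mean left 12 members measured, and 12 were lower, with the same limit. The median was -5.36 with a pseudocount of 0.1, -2.87 with 5, -2.00 with no filter, -5.96 with a mean of at least 20 FPKM, -5.09 re-centred, -3.39 under upper-quartile scaling and -4.95 on normalized counts.

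For VEGF-C in YFP-positive cells, 5 were higher with a pseudocount of 5 FPKM. The median was 2.85 with a pseudocount of 0.1, 0.48 with 5, 0 with no filter, 0.83 with a mean of at least 20 FPKM and 2.02 under upper-quartile scaling.

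For VEGF-C in YFP-negative cells, 7 were higher and 14 lower under upper-quartile scaling. With a mean of at least 20 FPKM 0 were lower, and 6 with members at 0 left out. The mean over 4 libraries is itself raised by high values with VEGF-C, so that filter bears on the split of higher and lower. The median was 0 with no filter, 2.03 with a mean of at least 20 FPKM, 1.35 re-centred, -0.39 under upper-quartile scaling and 0.98 with members at 0 left out. Upper-quartile scaling moved the median of all genes from -0.54 to -1.44 there.

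On normalized counts, not scaled by length, the homeostatic share was 0.531% in the YFP-positive with VEGF-C, 7.77% in the YFP-negative with VEGF-C and 5.24% in the YFP-negative library. The Fc receptor and adaptor share was 3.14%, 16.9%, 20.2% and 6.20% from YFP-positive with VEGF-C to YFP-negative, and the C1q share 4.63% in the YFP-negative library. With Lyz2, Cd52 and Cyba left out, the homeostatic share was 2.90% in the YFP-negative with VEGF-C library, and the Fc receptor and adaptor share 10.7% in the YFP-positive with VEGF-C, 45.6% in the YFP-negative with VEGF-C and 19.3% in the YFP-negative library.

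Low fragment counts in the sparse libraries limit what can be read from values under 1 FPKM.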
